A study of Homo sapiens with 6 samples.

Results

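Prostanoids are lipid mediators made from arachidonic acid in a short chain of enzymes, and monocytes and macrophages are well-known sources of them during inflammation. A cytosolic phospholipase frees arachidonate from membranes, a cyclooxygenase turns it into prostaglandin H2, and terminal synthases convert that into prostaglandin E2, prostacyclin or thromboxane. The receptors EP2 and EP4 for prostaglandin E2 and IP for prostacyclin couple to the stimulatory G protein and raise cyclic AMP, which in myeloid cells is known to restrain TNF release. The genes described here are the phospholipase PLA2G4A, the cyclooxygenases PTGS1 and PTGS2, the prostaglandin E synthases PTGES, PTGES2 and PTGES3, the thromboxane synthase TBXAS1, and the receptors PTGER2 (EP2), PTGER4 (EP4) and PTGIR (IP). Every array probe annotated to one of these genes alone was taken, whatever its values. Of the 10 genes, 9 were measured, by 11 of 31741 probes, and PTGES3 was not analysed here. Over the whole array 18255 genes had a probe of their own.

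The cells were THP-1, a human line from an acute monocytic leukaemia, and their RNA was hybridised to 6 single-colour Cy5 arrays in 3 groups of 2. LC53 plus LPS cells received the compound LC53 at 5 µM and, 15 min later, lipopolysaccharide (LPS, the bacterial membrane component sensed by TLR4) at 50 ng/ml for 8 h. LPS cells received the same LPS dose for the same time without LC53, and resting cells received neither agent. All cells stood in medium with 0.5% serum, and no group with LC53 alone entered the comparisons. The series title names theissenolactone C and TAK-1/IKK signalling, and no source used here gives the structure of LC53. Separate cultures for the paired arrays are not stated in the labels, and the design text counts 3 RNA samples, so the p-values measure a spread between arrays that may be technical. With 2 arrays a group, the number of arrays limits the precision of every value.

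Median probe intensity was 110.5 and 112.7 units with LC53 plus LPS, 84.4 and 124.0 with LPS alone, and 99.2 and 110.9 in resting cells. LPS replicate 2 read above LPS replicate 1 on 92.0% of all probes and on 11 of the 11 probes described here. As a check of the LPS label, TNF, a cytokine gene of the early inflammatory response, read 4263 and 4533 units with LC53 plus LPS, 13375 and 13751 with LPS alone, and 683 and 873 in resting cells. Of 10 monocyte and macrophage markers, 9 were measured, and all 9 read above the array median on every array. Among these, SPI1 rose with LPS and CSF1R fell with LC53 plus LPS against LPS. Of 21 markers of other cell types, 17 were measured and 3 of them read above the array median on every array. Their summed intensity ran from 2004 to 2422 units with LC53 plus LPS, 1530.2 to 2212 with LPS alone and 1591 to 1855 in resting cells, and its part in the results was not tested. One of them, the fibroblast marker DCN, was higher with LPS than in resting cells and lower with LC53 plus LPS than with LPS, at 29.0 and 24.5 units with LC53 plus LPS, 112.5 and 160 with LPS alone, and 11.9 and 10.1 in resting cells. The other fibroblast markers, COL1A1 and COL3A1, were not called in any comparison. In the same comparisons the log2 differences of COL1A1 ran the other way, at -0.21 and 0.41. Those of COL3A1, a probe at 0.99 to 3.12 units, were 0.79 and -0.79. The platelet marker GP9, at 1.92 to 5.58 units and among the dimmest probes, fell with LPS and was higher with LC53 plus LPS than with LPS.

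With LPS, 3 of the 9 measured genes rose against resting cells, namely PTGS2, PTGIR and PTGER2, and none fell at an adjusted p below 0.05 (limma, Benjamini-Hochberg over all 31741 probes, each gene by its brighter probe). Over all probes 6.52% were called in this comparison, 4.02% as higher and 2.5% as lower. With LC53 plus LPS, 2 of the 9 fell against LPS alone, PTGS2 and PTGIR, and none rose, where 2.63% of all probes were called, 1.94% as lower and 0.687% as higher. The balance of higher and lower over all probes turned round without LPS replicate 2, with 1695 probes higher and 623 lower for LC53 plus LPS against LPS (218 and 616 with all arrays), and 981 higher and 1598 lower for LPS against resting (1276 and 793 with all arrays). Against resting cells 1 of the 9 was higher with LC53 plus LPS, TBXAS1, and none was lower, where 2.96% of all probes were called, 1.75% as higher and 1.21% as lower. The median log2 difference of the 9 genes was 1.26 with LPS against resting, -0.63 with LC53 plus LPS against LPS and 0.35 with LC53 plus LPS against resting, while the medians of all probes were -0.05, 0.15 and 0.11. These comparisons share arrays: each pair of them has a group in common. Where groups are said below not to overlap, this is a description, and its share over all probes was not counted. The monocyte markers CD68 and CD33 were not called in any comparison, and their groups did not overlap either. In these bulk RNA samples fewer cells of a type and less RNA per cell cannot be told apart.

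For arachidonate supply the gene is PLA2G4A, the cytosolic phospholipase A2 that is activated by calcium and phosphorylation. The arrays measured its RNA, not arachidonate or the activity of the enzyme. Its probe gave 1271 and 1369 units with LC53 plus LPS, 662 and 783 with LPS alone, and 813 and 997 in resting cells. The order was thus LC53 plus LPS, resting, LPS, and no array of one group overlapped another. With LC53 plus LPS the level was 1.83-fold that of LPS alone, a log2 difference of 0.87 ± 0.21 (SE) that missed the threshold (limma adjusted p = 0.103). LPS stood 0.32 below resting on the log2 scale (adjusted p = 0.478), and the 95% interval of that difference, -0.83 to 0.19, includes 0. The gene lies on chromosome 1 (GRCh38.p14, chr1:186828949-186988981), 148.5 kb beyond PTGS2 (chr1:186671791-186680423).

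PTGS2, the inducible cyclooxygenase COX-2, had the widest differences of the 9 genes when LPS was set against resting and when LC53 plus LPS was set against LPS. The 250 bases before its start site are shown because promoters of this gene have known sites for NF-kB, C/EBP and CREB family factors, and capitals mark the letters that matched a kappaB decamer, a C/EBP motif (TTNNGNAA), the core of a cyclic AMP response element (TGACG) and a TATA box (TATAAA). The sequence is RefSeq GRCh38.p14, chr1:186680424-186680673, minus strand, 5′ to 3′, and both strands were searched.
PTGS2: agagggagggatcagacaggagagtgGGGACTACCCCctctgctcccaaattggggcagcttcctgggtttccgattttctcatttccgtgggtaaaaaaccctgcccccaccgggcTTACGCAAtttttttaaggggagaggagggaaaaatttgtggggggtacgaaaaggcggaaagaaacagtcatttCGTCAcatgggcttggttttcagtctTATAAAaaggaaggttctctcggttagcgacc
Counting back from the base before the start as -1, matches lay from -224 to -214 (a pair of overlapping kappaB decamers), -133 to -126 (C/EBP), -58 to -54 (the CRE core, on the opposite strand) and -32 to -27 (TATA). Among 35116 promoter windows of the same length, 28.9% held a kappaB decamer, 33.2% the C/EBP motif, 21.2% the CRE core and 10.7% the TATA box. A kappaB decamer was found for 6 of the 9 genes that have a window, namely PTGS2, PTGES, PTGES2, PTGES3, PTGER2 and PTGER4, a set with genes that rose with LPS, genes that did not pass the test and the unmeasured PTGES3. This count is by gene and the 28.9% is by window, so they are not like for like. PTGES2 has 3 windows, with the decamer at start site 2 alone, and PTGS1 has 2 windows. PLA2G4A had none of the 7 motifs searched, which says only that those letters are not in its window. PTGIR was not among the windows.

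The PTGS2 probe gave 452 and 530.0 units with LC53 plus LPS, 1796 and 1923 with LPS alone, and 207 and 250.1 in resting cells. Both LPS arrays stood far above the other 4, and the LC53 plus LPS arrays lay above both resting arrays without overlap. PTGS2 rose 8.16-fold with LPS (log2 difference 3.03 ± 0.20, SE, limma adjusted p = 0.0014). It was 3.80-fold lower with LC53 plus LPS than with LPS (log2 difference -1.92 ± 0.20, 95% interval -2.42 to -1.43, adjusted p = 0.0128). Without LC53 plus LPS replicate 1 or 2 that second call was lost, with limma adjusted p = 0.0996 and 0.0921. LC53 plus LPS cells stood at 2.15-fold the resting level, a difference just outside the threshold (log2 difference 1.10, interval 0.61 to 1.60, adjusted p = 0.0549).

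PTGS1, the cyclooxygenase COX-1 that most cells make constitutively, was dim and uneven between replicates. It read 39.0 and 17.9 units with LC53 plus LPS, 40.6 and 88.5 with LPS alone, and 22.8 and 27.2 in resting cells. All 6 values were below the median of their array, and the LC53 plus LPS arrays spanned the resting ones. The log2 difference of LPS against resting was 1.27 ± 0.50 (SE, limma adjusted p = 0.245) and that of LC53 plus LPS against LPS -1.18 ± 0.50 (adjusted p = 0.289). Its interval for LC53 plus LPS against resting ran from -1.16 to 1.33, on both sides of 0.

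**Figure D1:**
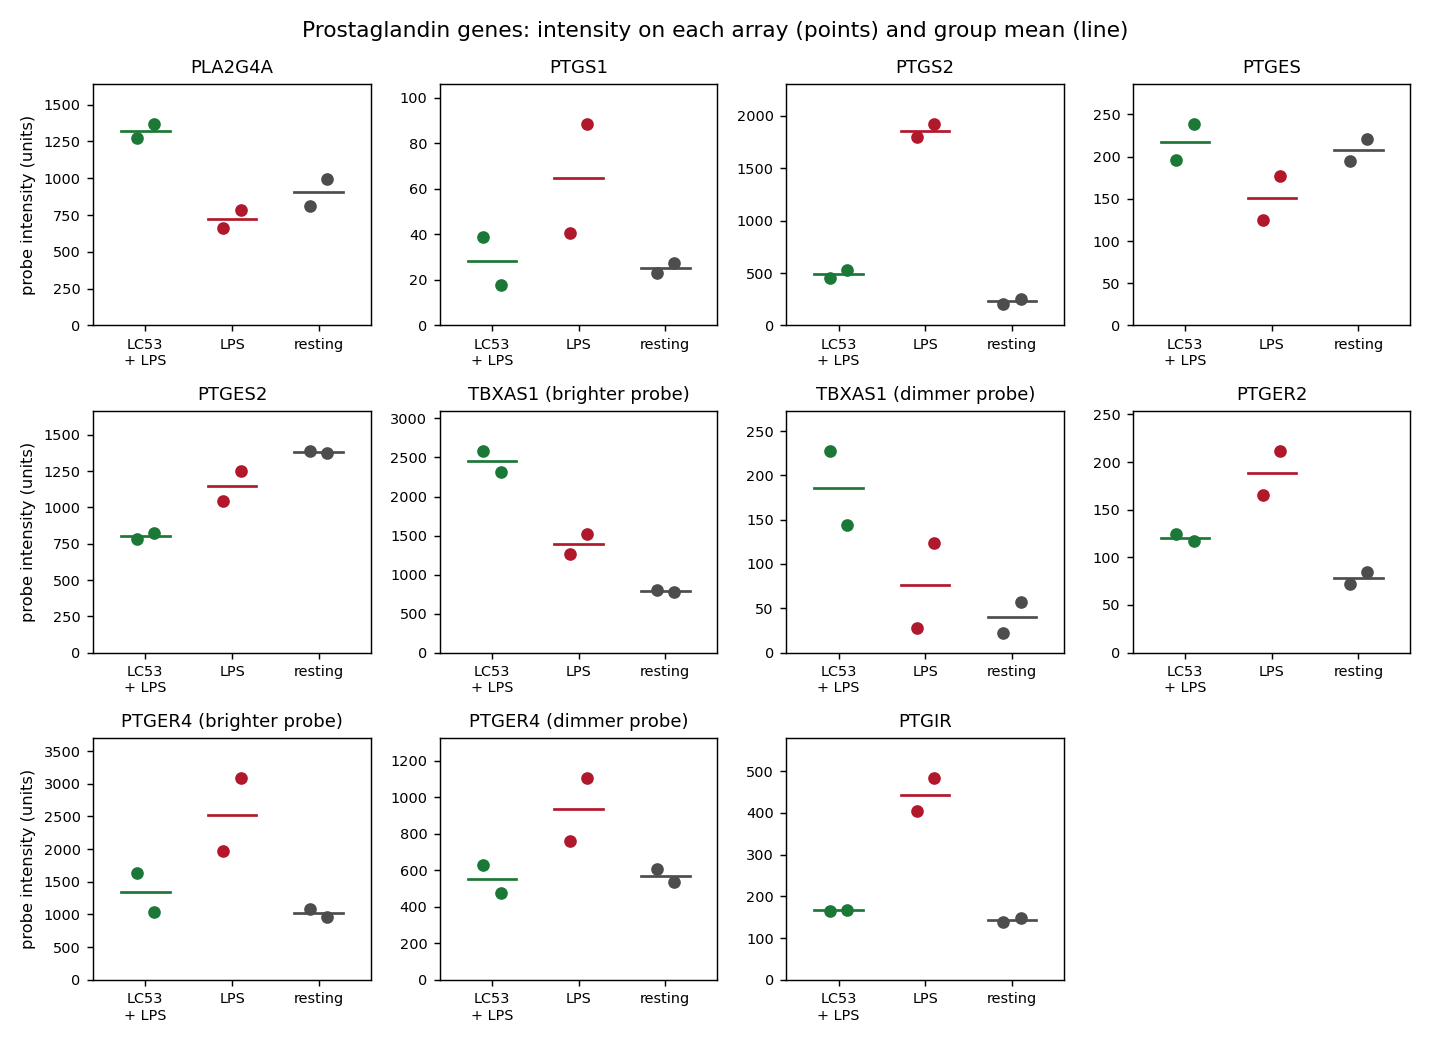
Probe intensity in linear units (y axis, from 0, with its own scale in each panel) of the 11 prostaglandin probes on the 6 arrays, with groups on the x axis. Each point is an array and each line a group mean: the LPS points of PTGS2 (1796 and 1923) and PTGIR (403 and 483) stand clear of both other groups, while TBXAS1 (brighter probe) is highest with LC53 plus LPS (2582 and 2319).

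Neither prostaglandin E synthase passed the test in any comparison. PTGES, the microsomal synthase mPGES-1 that often works with COX-2, read 197 and 239 units with LC53 plus LPS, 125 and 177 with LPS alone, and 195 and 221 in resting cells. The LPS arrays were the lowest pair and overlapped neither other group, whereas the LC53 plus LPS and resting arrays overlapped. Its log2 difference was -0.48 ± 0.25 for LPS against resting (SE, limma adjusted p = 0.368) and 0.54 ± 0.25 for LC53 plus LPS against LPS (adjusted p = 0.311). The upper end of the interval for LPS against resting was 0.12, while the lower end of the interval for PTGS2 in the same comparison was 2.53.

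PTGES2, the membrane-associated synthase mPGES-2, read 784 and 825 units with LC53 plus LPS, 1048 and 1252 with LPS alone, and 1388 and 1376 in resting cells. Resting was highest and LC53 plus LPS lowest, with no overlap between groups. No comparison passed: the log2 difference was -0.27 for LPS against resting (limma adjusted p = 0.514), -0.51 for LC53 plus LPS against LPS (adjusted p = 0.236) and -0.78 ± 0.19 for LC53 plus LPS against resting (SE, adjusted p = 0.105). PTGES, PTGES2 and PTGS1 all lie on chromosome 9 in GRCh38.p14.

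TBXAS1, the thromboxane synthase, stood highest in the LC53 plus LPS group. Its brighter probe read 2582 and 2319 units with LC53 plus LPS, 1262 and 1524 with LPS alone, and 796 and 779.6 in resting cells. The 3 groups were fully separated, in the order LC53 plus LPS, LPS, resting, which none of the other 8 genes showed at its brighter probe. LC53 plus LPS was 3.11-fold above resting (log2 difference 1.63 ± 0.19, SE, limma adjusted p = 0.0171). The steps on either side of the LPS group were 0.82 ± 0.19 each on the log2 scale and missed the threshold, with adjusted p = 0.104 for LC53 plus LPS against LPS and 0.0725 for LPS against resting. The call against resting was lost without resting replicate 1 or 2 (adjusted p = 0.183 and 0.179), without LC53 plus LPS replicate 1 or 2 (0.145 and 0.115), and when both probes were averaged (0.0966).

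Platelets are rich in this enzyme, and the platelet markers PPBP and GP9 summed to 97.8 to 192 units with LC53 plus LPS, 117 to 166 with LPS alone, and 122 to 168 in resting cells, with overlap between all groups. Nearly all of that sum was PPBP, and GP9 read 5.44 and 5.58 units with LC53 plus LPS, 2.08 and 1.92 with LPS alone, and 4.96 and 4.03 in resting cells. GP9 lay within percentiles 1.89 to 8.77 of the arrays, among their dimmest probes. There it was higher with LC53 plus LPS than with LPS (log2 difference 1.46, limma adjusted p = 0.0239), a gap of few intensity units. The part of GP9 in the TBXAS1 values was not tested. The dimmer TBXAS1 probe read 227 and 144 units with LC53 plus LPS, 28.1 and 124.0 with LPS alone, and 21.8 and 57.5 in resting cells. It was again highest with LC53 plus LPS, but the LPS and resting arrays overlapped and no comparison passed. Its difference of LC53 plus LPS against resting was 2.35 ± 0.80 on the log2 scale (SE, limma adjusted p = 0.224), so the probes share a direction and differ in the call. The 250 bases before the TBXAS1 start site are shown because this promoter has a known NF-E2 site, and capitals mark the match to that motif, given here by its name, which takes in a shorter AP-1 motif (TGANTCA). The sequence is RefSeq GRCh38.p14, chr7:139829014-139829263, plus strand, 5′ to 3′, and its start site lies inside the annotated span of the gene (chr7:139778242-140020293).
TBXAS1: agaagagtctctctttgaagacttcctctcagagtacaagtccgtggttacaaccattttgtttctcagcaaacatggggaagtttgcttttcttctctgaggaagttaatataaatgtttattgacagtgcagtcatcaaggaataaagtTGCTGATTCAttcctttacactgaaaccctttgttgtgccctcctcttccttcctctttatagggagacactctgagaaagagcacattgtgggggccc
The match lay from -99 to -90, and 0.336% of the 35116 windows held the NF-E2 motif on either strand, against 6.57% for the AP-1 motif. An antioxidant response element core (TGACNNNGC, in 10.9% of windows) lay from -127 to -119. TATA box letters (in 10.7% of windows) lay from -140 to -135 and, on the opposite strand, from -43 to -38. Neither of these motifs is in capitals here. No kappaB decamer was found in these letters. The matches are descriptions of the sequence and were not set against binding data.

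Among the receptors, PTGIR was the one that passed the test with LPS and again when LC53 was added. The PTGIR probe, for the prostacyclin receptor IP, read 165 and 167 units with LC53 plus LPS, 403 and 483 with LPS alone, and 138 and 147 in resting cells. Both LPS arrays were high, and the LC53 plus LPS pair lay just above the resting pair. PTGIR rose 3.10-fold with LPS (log2 difference 1.63 ± 0.19, SE, limma adjusted p = 0.0080) and was 2.66-fold lower with LC53 plus LPS than with LPS (log2 difference -1.41 ± 0.19, adjusted p = 0.0243). The difference of LC53 plus LPS from resting was 0.22 (interval -0.24 to 0.69, adjusted p = 0.635). The LPS call was lost without resting replicate 1 or 2 (adjusted p = 0.108 and 0.0871). The LC53 call was lost without LC53 plus LPS replicate 1 or 2, where the log2 differences were -1.40 and -1.42. In a fit of the LC53 plus LPS and LPS arrays alone it was lost too (limma adjusted p = 0.101). Leaving out either resting array gives that same fit.

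PTGER2, the EP2 receptor for prostaglandin E2, read 124 and 117 units with LC53 plus LPS, 166 and 212 with LPS alone, and 72.4 and 84.7 in resting cells. The groups did not overlap, and LC53 plus LPS lay between LPS and resting. PTGER2 rose 2.39-fold with LPS (log2 difference 1.26 ± 0.21, SE, limma adjusted p = 0.0264). That call was lost without resting replicate 1 or 2, where the log2 differences were 1.14 and 1.37. In a fit of the LPS and resting arrays alone it was lost too (limma adjusted p = 0.0736). Leaving out either LC53 plus LPS array gives that same fit. LC53 plus LPS against LPS gave -0.63 ± 0.21 (adjusted p = 0.205), with an interval of -1.16 to -0.11. It passed as lower under quantile normalization (adjusted p = 0.0221), median centring (0.0468) and loess (0.0210), and under no other alternative run.

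PTGER4, the EP4 receptor, was measured by a pair of probes, neither of which passed the test. The brighter probe read 1634 and 1041 units with LC53 plus LPS, 1969 and 3084 with LPS alone, and 1079 and 966 in resting cells. The dimmer probe read 629 and 473 with LC53 plus LPS, 762 and 1105 with LPS alone, and 608 and 536 in resting cells. On both probes the LPS arrays were the highest pair, LPS replicate 2 stood well above LPS replicate 1, and the LC53 plus LPS arrays overlapped the resting ones. The brighter probe gave 1.27 ± 0.32 for LPS against resting (log2 difference, SE, limma adjusted p = 0.0867) and -0.92 ± 0.32 for LC53 plus LPS against LPS (adjusted p = 0.221). The dimmer gave 0.69 ± 0.27 (adjusted p = 0.235) and -0.75 ± 0.27 (adjusted p = 0.225). For LC53 plus LPS against resting the probes had opposite signs, 0.35 and -0.07, both with intervals that include 0.

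**Figure D2:**
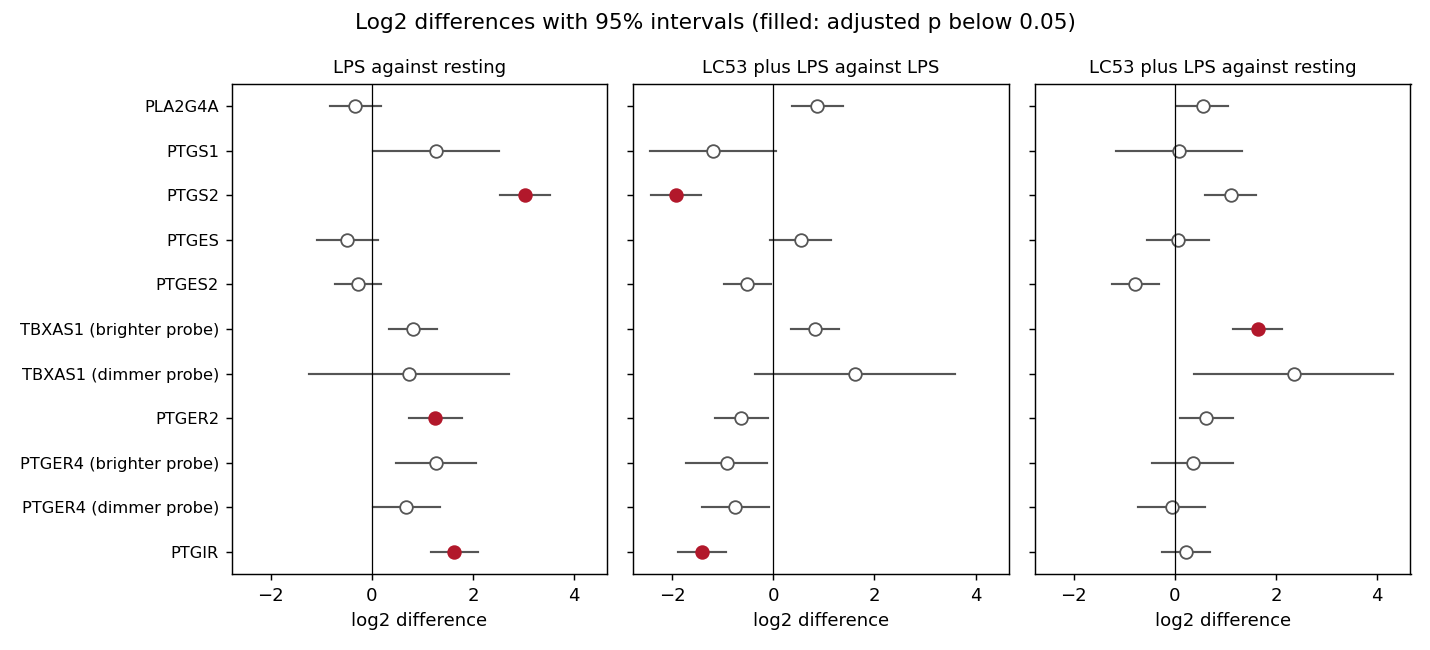
Log2 difference (x axis) of each of the 11 probes (y axis) in the 3 comparisons, with 95% intervals as lines and filled points where the limma adjusted p was below 0.05. PTGS2 is filled at 3.03 in the LPS panel and at -1.92 in the panel of LC53 plus LPS against LPS, PTGIR at 1.63 and -1.41, PTGER2 at 1.26 for LPS against resting, and TBXAS1 (brighter probe) at 1.63 for LC53 plus LPS against resting.

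The 5 genes whose 6 log2 values lay nearest to those of PTGS2, after each probe's mean was subtracted, were S100A12, PARM1, LTA, TNIP1 and BCL6. The measure was the root mean square difference over the 6 arrays among 16898 candidate probes, and it was 0.0904 for S100A12, a calcium-binding alarmin, 0.118 for PARM1, 0.144 for LTA, the cytokine lymphotoxin alpha, 0.152 for TNIP1, a partner of the ubiquitin-editing protein A20, and 0.153 for BCL6, a transcriptional repressor. S100A12 read 829 and 999.8 units with LC53 plus LPS, 3312 and 3792 with LPS alone, and 431 and 543 in resting cells. These genes were chosen for their likeness, so their values are a description.

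**Figure D3:**
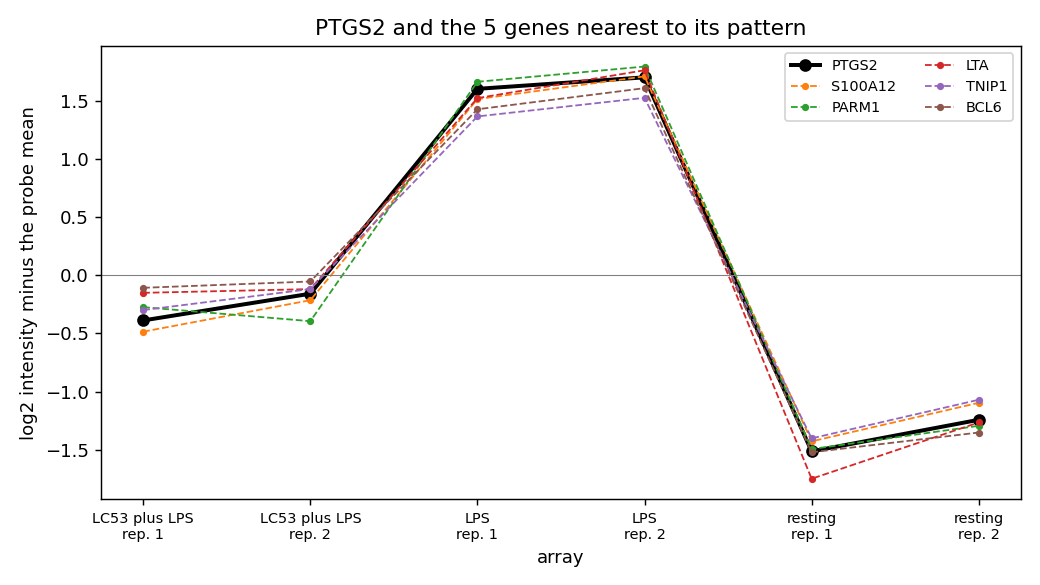
Log2 intensity minus the probe mean (y axis) on each of the 6 arrays (x axis) for PTGS2 (heavy black line) and the 5 genes nearest to it (thin dashed lines). The lines peak on both LPS arrays, lie lowest in resting cells, and differ from PTGS2 by a root mean square of 0.0904 to 0.153.

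Of 27 other genes of the prostanoid pathway, 26 were measured. With LPS 3 of the 26 rose and none fell, where 4.02% of all probes rose and 2.5% fell. The median log2 difference of the 26 was -0.08. LC53 plus LPS against LPS gave 1 lower and none higher, where 1.94% of all probes were lower and 0.687% higher. The median of the 26 was 0.15, next to 0.15 over all probes. Against resting, 3 were higher and none lower with LC53 plus LPS, and each of these calls was lost without either resting or either LC53 plus LPS array (limma adjusted p of 0.0591 to 0.139). For LC53 plus LPS against resting, 1.75% of all probes were higher and 1.21% lower. The genes called in both comparisons with resting were MGLL and PLA2G4C, which release fatty acids from lipids, and AKR1C3, a reductase that makes prostaglandin F2 alpha. None of the 6 other prostanoid receptors PTGER1, PTGER3, PTGDR, PTGDR2, PTGFR and TBXA2R passed in the LPS or the LC53 plus LPS against LPS comparison.

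MGLL, monoacylglycerol lipase, read 492 and 551 units with LC53 plus LPS, 1218 and 1337 with LPS alone, and 87.3 and 104 in resting cells. The 3 groups were well apart with LC53 plus LPS in between. MGLL rose 13.4-fold with LPS (log2 difference 3.74 ± 0.20, SE, limma adjusted p = 0.0006) and was 2.45-fold lower with LC53 plus LPS than with LPS (-1.29 ± 0.20, adjusted p = 0.0342). The second call was lost without LC53 plus LPS replicate 1 or 2 and without LPS replicate 1, where the log2 differences were -1.21, -1.37 and -1.36. In a fit of the LC53 plus LPS and LPS arrays alone it was lost too (limma adjusted p = 0.120). Leaving out either resting array gives that same fit.

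PLA2G4C, a calcium-independent member of the cytosolic phospholipase family, read 435 and 354 units with LC53 plus LPS, 297 and 429 with LPS alone, and 56.5 and 65.6 in resting cells. Both LPS-treated groups overlapped and stood far above resting. It rose with LPS by 2.55 on the log2 scale (limma adjusted p = 0.0050, and 0.0504 without resting replicate 1), while LC53 plus LPS against LPS gave 0.14 with an interval of -0.49 to 0.77. AKR1C3 read 338 and 399 units with LC53 plus LPS, 211 and 216 with LPS alone, and 89.2 and 104 in resting cells. Like the brighter TBXAS1 probe it was highest with LC53 plus LPS and lowest in resting cells. AKR1C3 rose with LPS by 1.15 (adjusted p = 0.0271), a call lost without any one of the 6 arrays (adjusted p of 0.0516 to 0.279), and its dimmer probe gave -0.28 (adjusted p = 0.772). LC53 plus LPS against LPS gave 0.78 (adjusted p = 0.117).

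Of 24 genes of cyclic AMP signalling downstream of EP2, EP4 and IP, 23 were measured. With LPS 2 of the 23 rose and 1 fell, and with LC53 plus LPS against LPS 1 was lower and none higher. Over all probes 4.02% rose and 2.5% fell with LPS. For LC53 plus LPS against LPS 1.94% were lower and 0.687% higher. Against resting, 2 were higher with LC53 plus LPS, PDE4B and CREM, calls lost without either resting or either LC53 plus LPS array (limma adjusted p of 0.0910 to 0.233). For LC53 plus LPS against resting, 1.75% of all probes were higher and 1.21% lower. The median log2 difference of the 23 was 0.11 with LPS against resting and -0.06 with LC53 plus LPS against LPS. Over all probes these medians were -0.05 and 0.15. PDE4B, a phosphodiesterase that breaks down cyclic AMP, read 238 and 242 units with LC53 plus LPS, 1781 and 1995 with LPS alone, and 61.5 and 68.6 in resting cells. The LPS arrays were the highest by a wide margin and the LC53 plus LPS arrays stood above resting. PDE4B rose 29.0-fold with LPS (log2 difference 4.86 ± 0.18, SE, limma adjusted p = 0.0003) and was 7.85-fold lower with LC53 plus LPS than with LPS (-2.97 ± 0.18, adjusted p = 0.0032). Its other probes passed in the same directions, with LPS differences of 4.55 and 2.53 and LC53 plus LPS against LPS differences of -3.09 and -1.82.

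CREM, a transcription factor of the cyclic AMP response, read 1688 and 1728 units with LC53 plus LPS, 1335 and 1438 with LPS alone, and 584 and 658 in resting cells. Both LPS-treated groups stood above resting, with LC53 plus LPS the highest. CREM rose with LPS by 1.16 on the log2 scale (limma adjusted p = 0.0202), while its dimmer probe gave 0.74 (adjusted p = 0.205). That call was lost without resting replicate 1 or 2, where the log2 differences were 1.08 and 1.25. In a fit of the LPS and resting arrays alone it was lost too (limma adjusted p = 0.0666). Leaving out either LC53 plus LPS array gives that same fit. ADCY9, an adenylyl cyclase, read 1067 and 1163 units with LC53 plus LPS, 617 and 609 with LPS alone, and 1372 and 1811 in resting cells. It was the gene of this list that fell with LPS, by 1.36 on the log2 scale (adjusted p = 0.0197). That call was lost without any one of 5 arrays (adjusted p of 0.0537 to 0.193), LPS replicate 2 being the exception, and LC53 plus LPS against LPS gave 0.86 (adjusted p = 0.111).

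**Figure D4:**
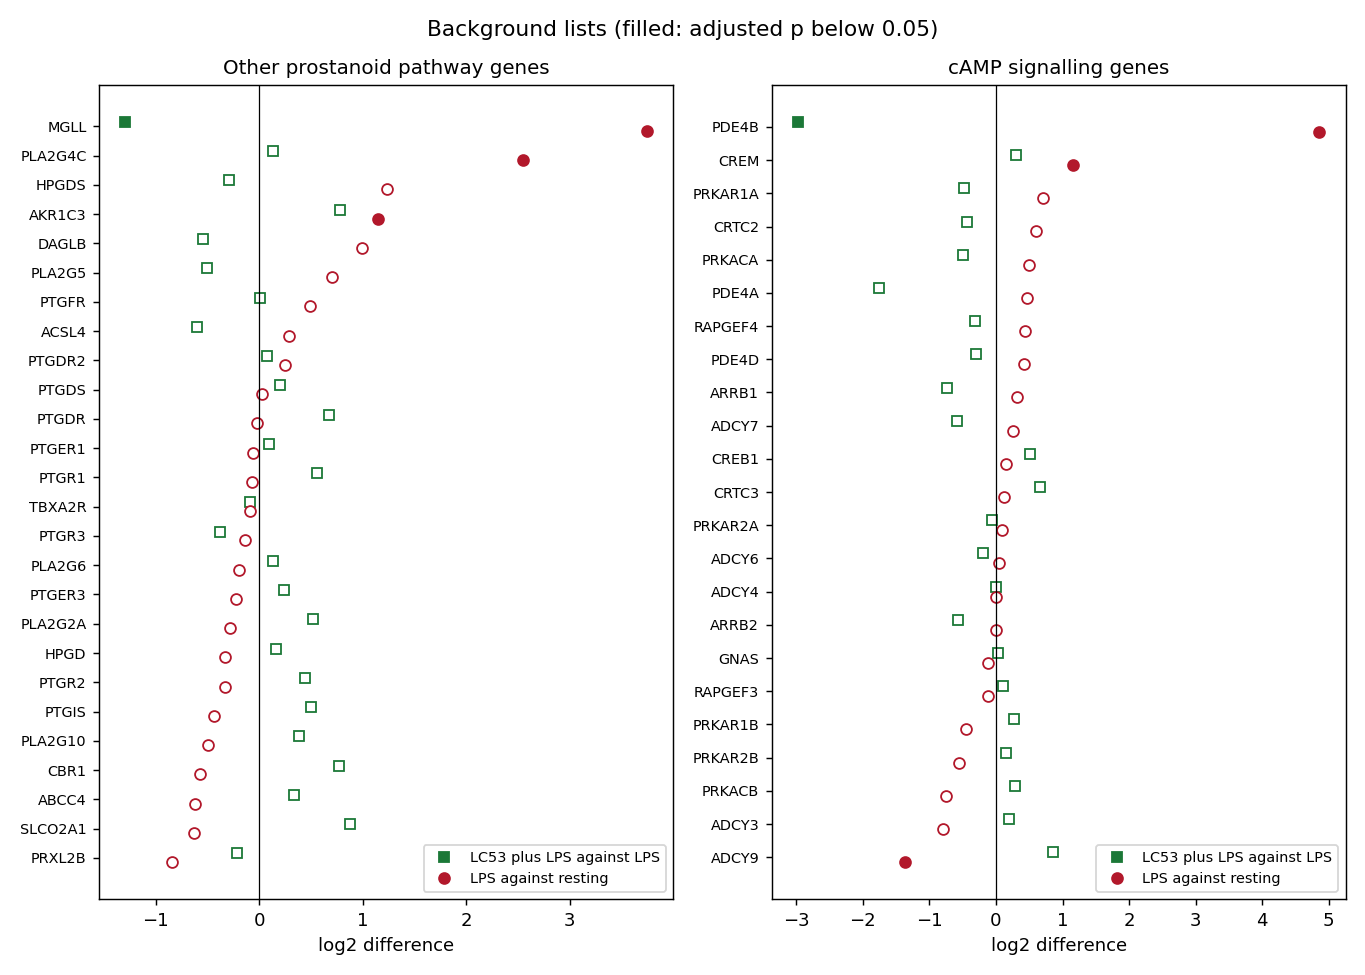
Log2 differences (x axis) of the 26 other prostanoid pathway genes and the 23 cyclic AMP signalling genes (y axis), with green squares for LC53 plus LPS against LPS and red circles for LPS against resting, filled where the limma adjusted p was below 0.05. PDE4B (-2.97 and 4.86) and MGLL (-1.29 and 3.74) are filled in both comparisons, and most other points lie near 0 and are open.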

How the data were processed

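Per the labels' protocols, the RNA went through amino allyl amplification and Cy5 labelling. The authors deposited linear probe intensity. No source used here states the scanner, the background correction, the normalization or whether all groups were put on one scale. On every array all values were whole multiples of 1 factor. For replicates 1 and 2 it was 0.992 and 1.009 in resting cells, 1.042 and 0.962 with LPS, and 0.906 and 1.116 with LC53 plus LPS. In each group 1 factor thus lay below 1 and the other above 1. The factors balance within each pair, as scaling each array to the mean of its own group would give. What set them is not stated in the labels. Scaling of that kind would leave differences of scale between groups in place. It could also narrow the spread between the arrays of a group, on which the p-values rest. Values were raised to at least 1 before log2, with arrays as deposited and no probe of the 9 genes saturated.

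Of 31741 probes, 24658 had 1 symbol, 1002 several and 6081 none. A model with 1 mean per group was fitted to all 6 arrays with limma 3.58.1 in R 4.3.3 (2-sided moderated test, adjusted p below 0.05, 95% intervals unadjusted). Python 3.11.15 with pandas 2.3.3, numpy 2.4.6 and matplotlib 3.10.9 made the tables and plots. A gene with several probes was counted by the one with the highest mean. All member probes are named. From the other lists each gene that passed with LPS, or with LC53 plus LPS against LPS, is named. Genes nearest to PTGS2 needed a mean of at least 50 in a group. Members and lists were chosen with earlier results of these data known. Alternatives were an offset of 50, quantile, median-centring and loess normalization, a filter on dim probes, an intensity trend, fits of the compared groups alone, a replicate block, the mean of a gene's probes, and each array left out. Leaving out an array of the group not compared gives the same test as fitting the compared groups alone, since a single array adds no spread. The limma fit was tested on simulated data with independent noise for each probe. Those data held no shift of a whole array, so the test does not cover one. Promoters and gene positions are RefSeq GRCh38.p14.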

Additional observations from a re-analysis of the deposited data

How the results depend on the processing

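Counts over all probes moved most. LPS against resting called 2069 probes as reported, 3519 with an offset of 50, 5157 with quantile normalization, 3802 with median centring, 5032 with loess, 3207 without dim probes, 3356 with an intensity trend, 1200 with the 2 groups alone, and 479 to 2579 with an array left out. In the same order LC53 plus LPS against LPS called 834, then 2367, 3755, 2416, 3585, 1912, 2159, 305 and 91 to 2318, and LC53 plus LPS against resting 941, then 2198, 3494, 2440, 3370, 1947, 2030, 1555 and 75 to 1555. The share of calls that were higher was 61.7%, 26.1% and 59.2% in these comparisons as reported, 50.3%, 46.4% and 49.2% with the offset, 49.5%, 43.9% and 43.5% with quantile normalization, 60.4%, 27.6% and 44.1% with median centring, and 58.6%, 33.4% and 44.7% with loess. Without LPS replicate 2 it was 38.0%, 73.1% and 55.9%. Median centring took the median of all probes for LC53 plus LPS against LPS to 0.02.

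Of the 9 genes, 5 rose with LPS under quantile, median centring, loess, without dim probes or with a trend, and 1 to 3 with an array left out. The added genes were PTGER4 and TBXAS1. Where 5 rose, the probes called higher over the whole array numbered 1724 to 2947, against 1276 as reported. With LC53 plus LPS against LPS, 2 rose (PLA2G4A and TBXAS1) under the offset, quantile, loess, without dim probes or with a trend, and none with an array left out. The number lowered was 3 under quantile, median centring and loess, PTGER2 being the one added, 1 with the 2 groups alone or the block, and 0 to 2 with an array left out. Against resting, 2 were higher under the offset, median centring, loess, without dim probes or with a trend, 3 under quantile, 0 with the mean of a gene's probes and 0 to 1 with an array left out, and 1 was lower (PTGES2) under the offset, quantile, median centring, loess, without dim probes or with a trend. PTGS2 passed for LPS against resting under every alternative run. For LC53 plus LPS against resting PTGS2 passed as higher under the offset, quantile, median centring, loess, the dim-probe filter and the trend (limma adjusted p of 0.0114 to 0.0337). There it did not pass with the compared groups alone, the block or the mean of a gene's probes. Under the offset, quantile, median centring, loess, the dim-probe filter and the trend, more probes were also called over the whole array in all 3 comparisons. The cause of these shifts was not tested.

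Some differences that passed no test changed sign. For LC53 plus LPS against resting, PTGS1 was -0.053 under quantile, -0.008 under median centring and -0.068 under loess, and -0.05 without resting replicate 1, with -0.48 to 0.64 over the arrays left out. In the same comparison PTGES was -0.029 under median centring, -0.03 without resting replicate 1 and -0.079 without LC53 plus LPS replicate 2, and 0.20 at most with an array left out. There the dimmer PTGER4 probe was 0.03 without resting replicate 1, with -0.27 to 0.14 over the arrays left out, the dimmer TBXAS1 probe for LPS against resting, 0.74 with all arrays, was -0.33 without LPS replicate 2 and 1.81 without LPS replicate 1, and PLA2G4C for LC53 plus LPS against LPS was -0.13 without LPS replicate 1, -0.01 without LC53 plus LPS replicate 1 and 0.40 without LPS replicate 2.

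Deviations of same-numbered arrays correlated at 0.06 for LPS and resting, -0.08 for LC53 plus LPS and LPS, and 0.20 for LC53 plus LPS and resting. These values cannot tell whether arrays were paired, since they take in dim probes and array-wide shifts. LPS replicate 2 read above LPS replicate 1 on 92.0% of all probes. With a replicate block 1492, 389 and 481 probes were called in the 3 comparisons, and the LC53 plus LPS against LPS calls of PTGIR (adjusted p = 0.0553) and MGLL (0.0594) were lost in limma. Dim probes such as PTGS1 give wide intervals, and the distance over background is unknown.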

Other observations

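PTGES3L, named for its likeness to PTGES3 and not one of the 9 genes, was picked out after its values were seen. Its probe read 1404 and 1279.9 units with LC53 plus LPS, 993 and 1012 with LPS alone, and 2371 and 2151 in resting cells. The LPS pair was lowest and no groups overlapped. PTGES3L fell with LPS by 1.17 ± 0.18 on the log2 scale (SE, limma adjusted p = 0.0193), while LC53 plus LPS against LPS gave 0.42 (adjusted p = 0.290) and LC53 plus LPS against resting -0.75 (adjusted p = 0.105).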
